A study of Mus musculus with 30 samples.

Results

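The genes described here are 34 transcripts of natural killer (NK) cells and other cytotoxic lymphocytes, out of 48440 genes counted in 30 mouse fibrosarcomas. They comprise NK receptors, granzymes, the pore former perforin, effector molecules and regulators. All 34 had at least 1 count, as did 32805 genes in all. The genes were chosen by name, and the choice was made with the values of these tumors known. The record does not say which values guided it. Since 23 of the 34 genes that were higher in tumors with the title letter W than in those with the letter a are among them, the difference between the letters, and the high levels in W tumors, are treated here as values that chose the genes. Counts of calls and refits of that difference are given as a description of these genes, and nothing is supported with them.

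The tumors came from 5 primary lines induced with the carcinogen methylcholanthrene (MCA) and grown in C57BL/6 mice. By the series' design text, the lines were grown in wild-type and in NK-cell-deficient hosts. The strain label is Ncr1Cre for the MCA-943 tumors and Ncr1Cre R26DTA for those of MCA-948, MCA-969, MCA-970 and MCA-972. The label itself does not state whether the host or the mouse of origin is meant. In the paper, the genotype given for a line is that of the mouse in which MCA induced the primary tumor. The transplant hosts of the lines were C57BL/6 mice, with or without an antibody against the receptor NK1.1. By the paper, this antibody depletes NK cells, type 1 innate lymphoid cells and also NKT cells. The paper does not state which of these hosts bore the sequenced tumors. Whether the deficient hosts of the design text were the antibody-treated mice is thus not known. In Ncr1Cre R26DTA animals, Cre is expressed from the locus of Ncr1 and switches on diphtheria toxin A, so that cells that have expressed NKp46 are removed. A tumor's title carries a letter, W or a, whose meaning the labels do not give. The letters are used as given and are not equated with a host. MCA-943 had 1 W and 3 a tumors, MCA-948 had 4 and 4, MCA-969 had 4 and 4, MCA-970 had 3 and 3, and MCA-972 had 3 a tumors and 1 with no letter. MCA-948, MCA-970 and MCA-972 were labelled sensitive to NK cells. MCA-943 and MCA-969 were labelled non-sensitive, although the sensitivity label of MCA-969 W-2D and of MCA-969 W-1D is the opposite. Cells bearing CD45 were removed with microbeads before RNA was taken, so the lymphocyte transcripts counted here are those that remained.

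NK cells are lymphocytes that kill tumor and infected cells without prior sensitization. Their activity depends on the balance between activating receptors, such as NKp46, NKG2D and NK1.1, and inhibitory receptors for major histocompatibility complex class I, such as most Ly49 molecules and CD94 paired with NKG2A. On contact with a target, perforin opens the target membrane and granzymes enter to trigger cell death, while chemokines and interferon-γ recruit and activate other cells. Granzymes, perforin and several of the receptors are shared with cytotoxic T cells and with type 1 innate lymphoid cells, and NKp46 is found on both NK cells and type 1 innate lymphoid cells.

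Libraries held 27745104 to 46537062 counts. Ptprc, which encodes CD45, the target of the beads, was still counted in all 30 tumors. It lay between 13 and 794 counts, with a median of 87.5, in the 12 W tumors, and between 17 and 759, with a median of 82, in the 14 a tumors of the 4 lines that held both letters. The W tumor of MCA-943 (741 counts) and the MCA-970 tumors W-1D (794) and W-R (486) held the most among W tumors, and MCA-943 a-1D (759) the most among a tumors. Levels are given as counts or as CPM, which are counts scaled to a normalized library of 1000000. Under 3 counts, which equal 0.0602 to 0.113 CPM in these libraries, a level cannot be told from the limit that a count of 0 allows, and this limit covers counting error only. In bulk tumor RNA, fewer cells of a type and less RNA per cell cannot be told apart.

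**Figure D1:**
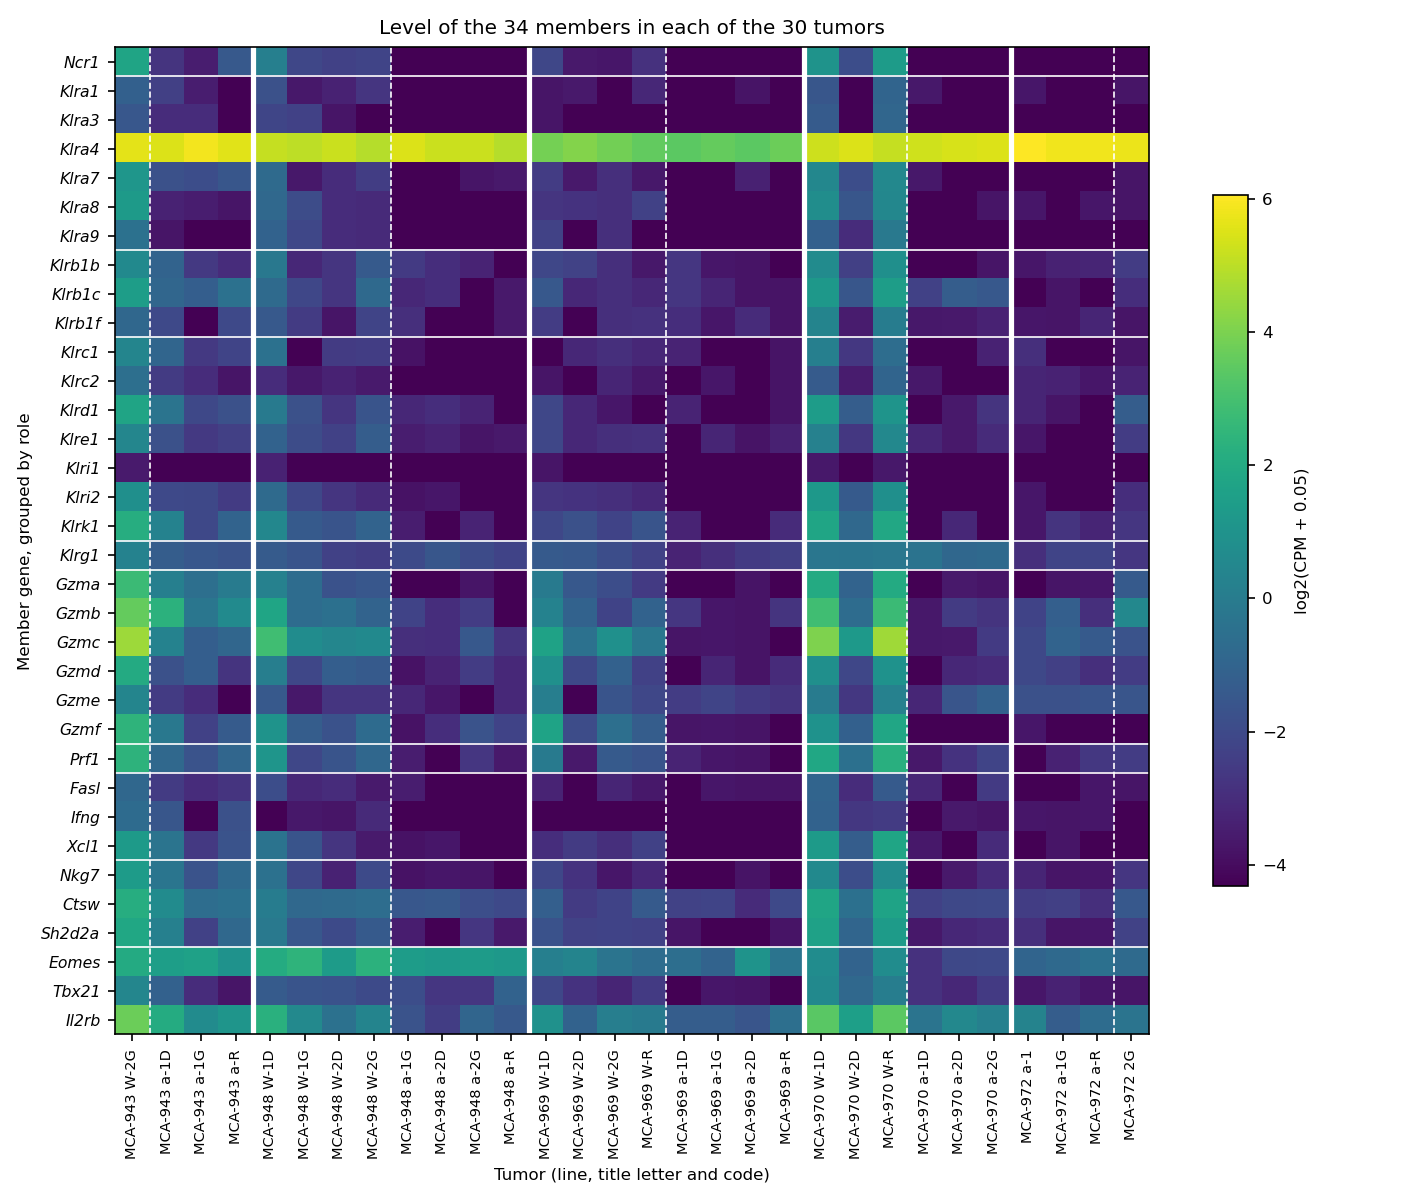
Level of each of the 34 genes (vertical axis, grouped by role) in each of the 30 tumors (horizontal axis, by line, title letter and title code), with colour showing log2 of CPM plus 0.05. Klra4 was high in every tumor, Eomes varied between the lines, and most other genes were near 0 in the a tumors outside MCA-943.

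Ncr1, which encodes the activating receptor NKp46 and drives Cre in these strains, separated the letters within every line that held both. It had 97 counts in the W tumor of MCA-943, 43, 6, 6 and 5 in the W tumors of MCA-948, 7, 1, 1 and 3 in those of MCA-969, and 67, 6 and 84 in those of MCA-970. Among a tumors it had 4, 1 and 13 counts in MCA-943 and 0 in all 14 a tumors of the other lines. The tumor of MCA-972 without a letter also had 0. All 12 W tumors thus had at least 1 count, but 3 of them had no more than the 3 counts that a count of 0 allows, and the MCA-943 a-R tumor, at 0.318 CPM, lay above the median W tumor, at 0.182 CPM. The fitted difference, W minus a, adjusted for line, was 5.56 ± 0.61 on the log2 scale (edgeR estimate ± SE, n = 12 and 14).

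Over the 26 tumors of the lines with both letters, 28 of the 34 genes passed the filter on low counts. Of these, 23 were called higher in W tumors, meaning an adjusted p under 0.05 and at least a 2-fold difference, and none was called higher in a tumors. Of all 16557 genes tested, 0.205 percent were called higher in W tumors. Nothing is read from this contrast of counts, since the genes were chosen with that difference in view. The median log2 difference of the 28 was 3.57, against -0.0076 over all genes. The 6 genes that did not pass the filter were Klra1, Klra3, Klrc2, Klri1, Fasl and Ifng, and the 5 that passed but were not called were Klrb1f, Gzme, Eomes, Klrg1 and Klra4.

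**Figure D2:**
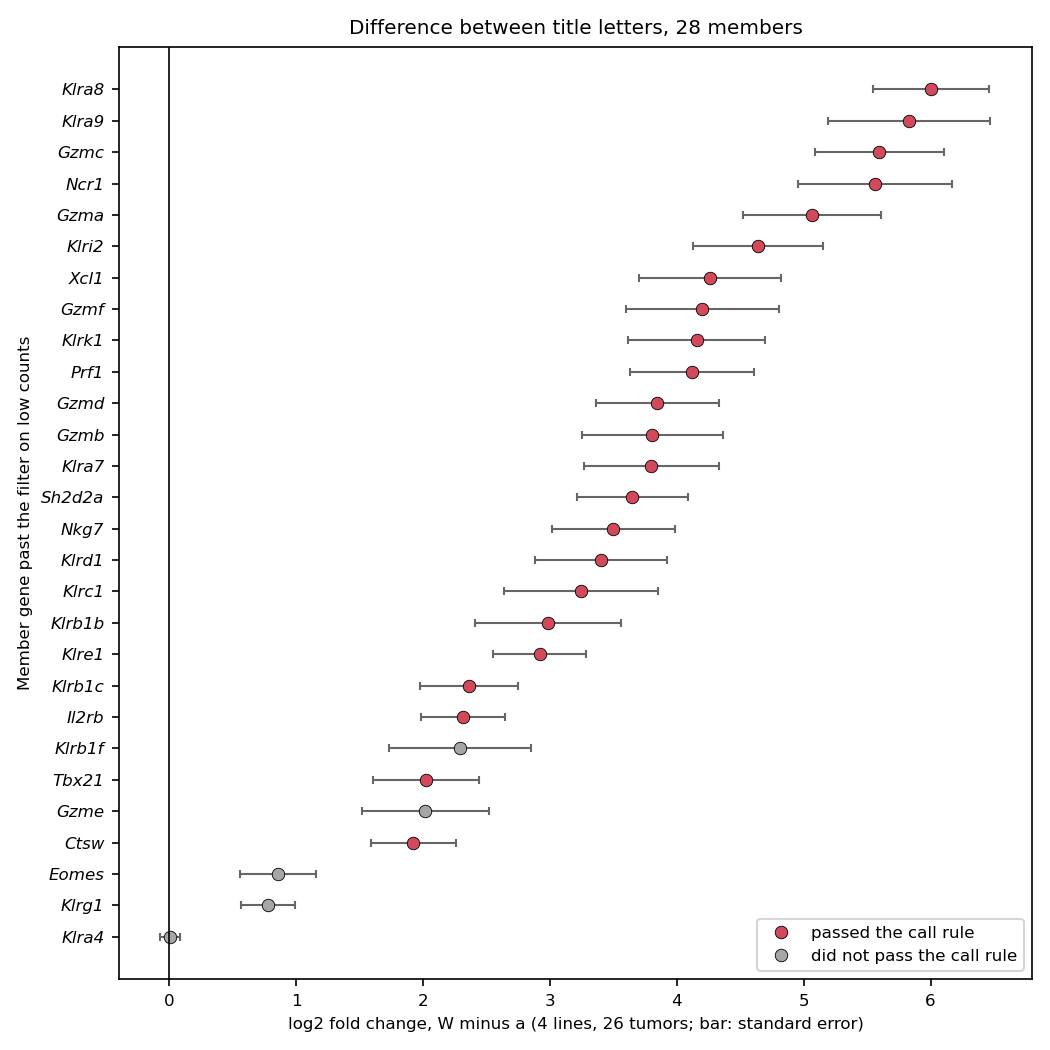
Fitted log2 difference, W minus a, with its standard error for each of the 28 genes tested, over 12 W and 14 a tumors with line as a covariate, in red where called and grey where not. The points run from 6.00 for Klra8 to 0.01 for Klra4.

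Granzymes made up a large part of the signal. Gzmc, a serine protease of cytotoxic granules, had 678 counts in the W tumor of MCA-943, 288, 52, 51 and 44 in MCA-948, 122, 22, 65 and 27 in MCA-969, and 565, 63 and 769 in MCA-970. In a tumors it had 47, 10 and 20 counts in MCA-943, 4, 3, 12 and 3 in MCA-948, 1, 1, 1 and 0 in MCA-969, 1, 1 and 5 in MCA-970, and 7, 18 and 12 in MCA-972, with 10 in the tumor without a letter. Within each line every W tumor lay above every a tumor, but across lines the groups overlapped, since MCA-943 a-1D, at 1.16 CPM, exceeded 2 W tumors of MCA-969. The log2 difference for Gzmc was 5.60 ± 0.51. Per kilobase of transcript, Gzmc had the highest mean level among the genes in W tumors after Klra4, 7.42 ± 9.41 CPM per kb (SD, n = 12), and 0.218 ± 0.336 (SD, n = 14) in a tumors.

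Gzma and Gzmb, the best known granzymes of mouse NK cells and cytotoxic T cells, differed by 5.06 ± 0.55 and 3.81 ± 0.56. Gzma ran from 0.122 to 6.78 CPM with a median of 0.511 in W tumors, and from 0 to 1.06 with a median of 0.0118 in a tumors. Gzmb ran from 0.166 to 12.1 CPM (median 0.623) in W tumors and from 0 to 5.01 (median 0.101) in a tumors. For both genes the highest a tumor belonged to MCA-943. Gzmf differed by 4.20 ± 0.60 and Gzmd by 3.84 ± 0.48, while Gzme, at 2.02 ± 0.50, was the granzyme not called. Gzme had 5, 6, 5 and 4 counts in the a tumors of MCA-969 and 40, 0, 10 and 6 in its W tumors, so that the letters overlapped there. Gzmd, Gzme and Gzmf are close copies in which 21.9, 20.6 and 19.4 percent of all 50-base stretches also occur in another gene, so reads may have been shared among them. The 6 granzymes together held 29.97 to 64.5 percent (median 43.2) of the summed counts of the genes, Klra4 and Eomes aside, in W tumors. They held 5.19 to 37.1 percent (median 21.9) in a tumors of the same 4 lines, and 29.1 to 52.0 percent (median 38.2) in the a tumors of MCA-972.

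Perforin, encoded by Prf1, differed by 4.12 ± 0.49 and ran from 0.0309 to 5.18 CPM with a median of 0.585 in W tumors, and from 0 to 0.518 with a median of 0.0463 in a tumors. Nkg7, a granule membrane protein, differed by 3.50 ± 0.48, Sh2d2a, an adaptor of T and NK cell signalling, by 3.65 ± 0.44, and Ctsw, a protease of cytotoxic lymphocytes, by 1.92 ± 0.33. Ctsw had the smallest difference among the genes called, and it kept a median of 0.195 CPM in a tumors.

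Among Ly49 receptors, Klra8 differed most. Klra8, which encodes the activating receptor Ly49H, had 73 counts in the W tumor of MCA-943, 21, 7, 3 and 2 in MCA-948, 4, 3, 3 and 5 in MCA-969, and 57, 8 and 44 in MCA-970. In a tumors it had 2, 1 and 1 counts in MCA-943, 0 in all of MCA-948 and MCA-969, 0, 0 and 1 in MCA-970, and 1, 0 and 1 in MCA-972, with 1 in the tumor without a letter. No a tumor exceeded 3 counts, but 4 of the 12 W tumors did not exceed that limit either. By CPM, Klra8 was the only gene of the 32805 with any count (0.00305 percent) for which every W tumor lay above every a tumor over the 26. That separation is narrow, since the lowest W tumor, at 0.0676 CPM, and the highest a tumor, at 0.0493 CPM, both held 2 counts and differed by library size alone. The log2 difference was 6.00 ± 0.46. Klra9 (Ly49I) differed by 5.83 ± 0.64 and Klra7 (Ly49G), an inhibitory receptor, by 3.80 ± 0.53. Klra1 (Ly49A) reached at most 15 counts and Klra3 (Ly49C) at most 16, both in MCA-970 W-R. Of the 50-base stretches of Klra8, 33.1 percent also occur in other Ly49 genes, as do 31.5 percent of those of Klra9 and 20.7 percent of those of Klra3, so the split of reads among them is uncertain.

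Klra4, which encodes the activating receptor Ly49D, did not follow its family. It had 391 to 2433 counts in all 30 tumors, with a median of 1358.5. Its mean level was 30.1 ± 12.7 CPM in W tumors (SD, n = 12) and 34.2 ± 16.2 CPM in a tumors (SD, n = 14), and the difference was 0.01 ± 0.08. Per kilobase it was first among the genes in both groups, at 24.2 ± 10.2 and 27.5 ± 13.01 CPM per kb. Its exons overlap no other annotated gene, and 4.68 percent of its 50-base stretches occur elsewhere. Klra6, its neighbour, had 12 to 64 counts, and Gm15854, with which Klra4 shares some sequence, had 0 to 21. Its level thus did not follow that of Ncr1, which was 0 in 15 of the 30 tumors.

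Klra4 differed between lines. Its level was 11.9 to 17.4 CPM in W tumors and 10.7 to 13.1 CPM in a tumors of MCA-969, and between 29.8 and 66.4 CPM in all tumors of the other 4 lines, so the groups did not overlap. In comparisons among the 5 lines over all 30 tumors, Klra4 was called in 4 of 10 pairs, and MCA-969 was the lower line in each. The log2 difference was 1.96 ± 0.11 for MCA-943 minus MCA-969 (edgeR quasi-likelihood test with Benjamini-Hochberg adjustment, adjusted p = 1.08e-14), and for MCA-969 minus MCA-948, MCA-970 and MCA-972 it was -1.44 ± 0.10 (adjusted p = 2.68e-13), -1.66 ± 0.10 (adjusted p = 6.51e-14) and -2.16 ± 0.11 (adjusted p = 1.99e-15). Among the 17 a tumors alone the same pairs had differences of 2.14, -1.70, -1.89 and -2.38.

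**Figure D3:**
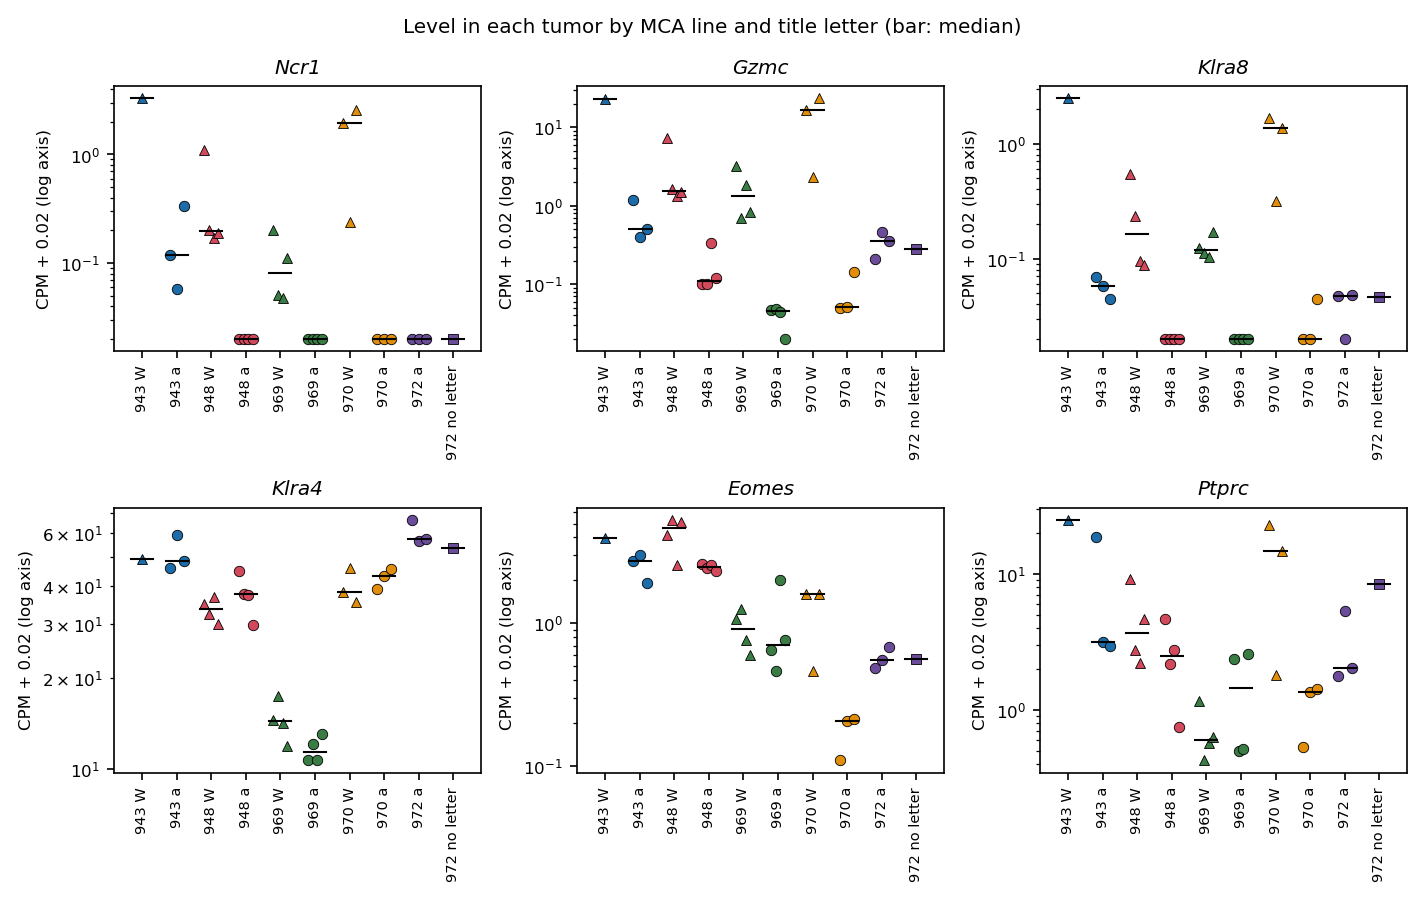
Level of Ncr1, Gzmc, Klra8, Klra4, Eomes and Ptprc in each of the 30 tumors by line and letter, as CPM plus a small offset on a log axis, with a bar at the median of each group. Ncr1, Klra8 and Gzmc were higher in W than in a tumors within each line, whereas Klra4 lay between 10.7 and 17.4 CPM in MCA-969 and at 29.8 CPM or above in all other tumors.

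The promoters of these genes, 250 bases before to 50 after the annotated start, were read from RefSeq (GRCm38.p6) and 28 of the 34 genes matched an entry. The hexamer TGTGGT, the core of RUNX binding motifs, counted on both strands, was present in 16 of the 28 (57.1 percent), against 16.7 percent of all 32544 promoters of the same length. The ETS core GGAAGT was present in 11 of 28 (39.3 percent, against 23.7), a T-box element GGTGTGA in 3 (10.7 percent, against 3.96), a STAT element TTCNNNGAA in 5 (17.9 percent, against 8.33) and TATAAA in 7 (25.0 percent, against 13.6). Such matches are letters in a window and not binding sites, and promoters of close copies are not independent. Ncr1 and Klra8 have 2 entries each, of which the first in the table is used. The promoters below are shown because they belong to the gene of NKp46 and to pairs of near copies of which only 1 was called between the letters. Klra8 was called and Klra4 was not, and Gzmd was called and Gzme was not. Gzmd and Gzme, at 3.84 ± 0.48 and 2.02 ± 0.50, were not tested against each other. Capitals mark the RUNX hexamer, as TGTGGT or its reverse complement ACCACA. Ncr1 lies on the plus strand at chr7:4337465-4337764, the others on the minus strand at chr6:130129849-130130148 for Klra8, chr6:130067222-130067521 for Klra4, chr14:56132544-56132843 for Gzmd and chr14:56120576-56120875 for Gzme.
Ncr1: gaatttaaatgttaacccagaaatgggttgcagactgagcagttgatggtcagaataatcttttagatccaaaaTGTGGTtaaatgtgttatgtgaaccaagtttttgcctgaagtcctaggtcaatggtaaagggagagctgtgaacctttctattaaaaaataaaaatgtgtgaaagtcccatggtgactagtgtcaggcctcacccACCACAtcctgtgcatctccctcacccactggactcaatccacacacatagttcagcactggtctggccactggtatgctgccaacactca
Klra8: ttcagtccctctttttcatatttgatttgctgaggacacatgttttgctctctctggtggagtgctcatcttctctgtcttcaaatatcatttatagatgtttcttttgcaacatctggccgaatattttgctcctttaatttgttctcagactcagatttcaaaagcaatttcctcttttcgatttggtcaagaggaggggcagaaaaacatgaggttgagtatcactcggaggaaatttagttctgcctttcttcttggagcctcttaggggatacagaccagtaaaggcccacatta
Klra4: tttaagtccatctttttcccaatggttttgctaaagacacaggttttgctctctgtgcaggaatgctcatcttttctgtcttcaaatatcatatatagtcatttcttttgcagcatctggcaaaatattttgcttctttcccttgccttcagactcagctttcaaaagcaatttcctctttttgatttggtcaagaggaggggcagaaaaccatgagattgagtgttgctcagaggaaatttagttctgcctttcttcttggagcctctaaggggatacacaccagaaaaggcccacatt
Gzmd: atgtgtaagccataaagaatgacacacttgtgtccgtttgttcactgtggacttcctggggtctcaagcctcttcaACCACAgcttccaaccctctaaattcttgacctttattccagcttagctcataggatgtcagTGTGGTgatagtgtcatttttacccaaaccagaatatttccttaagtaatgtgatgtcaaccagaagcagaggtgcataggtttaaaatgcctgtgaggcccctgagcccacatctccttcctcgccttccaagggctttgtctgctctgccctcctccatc
Gzme: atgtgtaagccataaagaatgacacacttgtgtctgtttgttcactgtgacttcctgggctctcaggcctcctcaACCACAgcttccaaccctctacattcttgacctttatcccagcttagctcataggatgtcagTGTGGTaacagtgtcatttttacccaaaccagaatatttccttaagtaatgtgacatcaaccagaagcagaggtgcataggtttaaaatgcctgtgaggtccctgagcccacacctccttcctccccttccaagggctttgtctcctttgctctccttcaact
Ncr1 held the hexamer at 2 positions, as did Gzmd and Gzme, while Klra8 and Klra4 held none in this window. Klra8 and Klra4, of which the first differed most between the letters and the second did not, were identical at 86.0 percent of aligned columns, or 57.7 percent with the second Klra8 entry. Gzmd and Gzme were identical at 93.4 percent.

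The NKR-P1 and NKG2 families hold further receptors of NK cells. Klrb1c, which encodes NK1.1, the marker used to deplete NK cells and type 1 innate lymphoid cells in this strain, differed by 2.36 ± 0.39. It had 80 counts in the W tumor of MCA-943, 22, 6, 4 and 16 in MCA-948, 12, 2, 3 and 2 in MCA-969, and 78, 8 and 87 in MCA-970. In a tumors it had 20, 10 and 28 counts in MCA-943, 3, 3, 0 and 1 in MCA-948, 4, 2, 1 and 1 in MCA-969, 5, 12 and 13 in MCA-970, and 0, 1 and 0 in MCA-972. The letters overlapped in MCA-969 and in MCA-970, where the lowest W tumor lay below 2 of the a tumors in counts. Klrb1b, an inhibitory receptor, differed by 2.98 ± 0.58, and Klrb1f by 2.29 ± 0.56 without being called. Klrb1b and Klrb1c share exonic bases with Gm44511, and reads there cannot be assigned with certainty.

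Klrk1, which encodes the activating receptor NKG2D, differed by 4.15 ± 0.54. It ran from 0.166 to 4.37 CPM (median 0.388) in W tumors and from 0 to 1.16 CPM (median 0.0461) in a tumors, and the highest a tumor was again MCA-943 a-1D, with 47 counts. Klrd1 (CD94) differed by 3.40 ± 0.52, Klrc1 (NKG2A) by 3.25 ± 0.61, Klre1 by 2.92 ± 0.37 and Klri2 by 4.64 ± 0.51. Klri1 reached at most 2 counts in any tumor and was 0 in every a tumor, so no difference was detectable at this depth. Klrg1, a receptor of mature NK and effector T cells, differed by 0.78 ± 0.21.

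Xcl1, a chemokine of NK and CD8 T cells that attracts cross-presenting dendritic cells, differed by 4.26 ± 0.56. Fasl and Ifng, which encode the death ligand and interferon-γ, remained too low to test, with at most 16 and 17 counts in any tumor. Ifng had 12, 0 and 10 counts in the a tumors of MCA-943 and at most 1 in the other a tumors. Il2rb, the chain shared by the receptors for interleukins that sustain NK cells, ran from 0.433 to 13.2 CPM (median 1.63) in W tumors and from 0.133 to 4.09 CPM (median 0.558) in a tumors, a difference of 2.31 ± 0.33. Tbx21, which encodes T-bet, a transcription factor of NK cells and type 1 innate lymphoid cells, differed by 2.02 ± 0.42.

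Eomes, a second T-box factor, which in mouse separates NK cells from type 1 innate lymphoid cells, differed by 0.86 ± 0.30 between the letters and was not called. Within MCA-970, though, Eomes was among the genes called higher in W tumors, at 2.90 ± 0.56. It also varied between the lines. Its level was 3.96 CPM in the W tumor and 1.91 to 2.99 CPM in the a tumors of MCA-943, 2.53 to 5.32 and 2.29 to 2.59 CPM in MCA-948, 0.578 to 1.24 and 0.446 to 1.99 CPM in MCA-969, 0.441 to 1.595 and 0.0897 to 0.194 CPM in MCA-970, and 0.464 to 0.668 CPM in the a tumors of MCA-972. The MCA-948 a tumors had 129, 91, 97 and 70 Eomes counts beside 0 Ncr1 counts in each. Among the 17 a tumors, Eomes was higher in MCA-948 than in MCA-970 by 3.93 ± 0.48 (edgeR adjusted p = 3.50e-06) and than in MCA-972 by 2.14 ± 0.41 (adjusted p = 0.000285), and lower in MCA-969 than in MCA-948, with a difference of -1.37 ± 0.35 (adjusted p = 0.00367). Over all 30 tumors it was called in 6 of 10 pairs, those of MCA-943 and MCA-948 with each of the other 3 lines, but with the library number block as a covariate only MCA-948 minus MCA-970 was still called, at 1.82 (adjusted p = 0.0132). Eomes shares 118 exonic bases with Gm33460.

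Within single lines the letters were compared in a model with a term for each line, again as a description of values that chose the genes. In MCA-970, 17 of 28 genes were called higher in W tumors (0.151 percent of all genes), in MCA-948 5 (0.0544 percent), which were Klra8, Klrk1, Gzma, Gzmc and Il2rb, and in MCA-969 1, Gzmc, the one gene called in the whole table there (0.00604 percent). In MCA-943, with a single W tumor, only the size of the difference is given, with a median of 2.82 over the 28 genes and -0.033 over all genes. With limma-voom the counts were 5 in MCA-970, 0 in MCA-948 and 0 in MCA-969. With 1 tumor left out they ran from 0 to 24 in MCA-970, 0 to 12 in MCA-948 and 0 to 3 in MCA-969. The counts of single lines thus rest on single tumors, and MCA-970 fell to 0 without a-1D or a-2G. Every W tumor lay above every a tumor for 33 of 34 genes in MCA-943 (18.7 percent of all genes with a count), 20 in MCA-948 (1.59 percent), 15 in MCA-969 (1.78 percent) and 26 in MCA-970 (4.4 percent). This held in all 4 lines for 12 genes (0.0457 percent of all genes with a count) and in no line for Klra4. Whether the difference between the letters itself varied by line was tested as an interaction. None of the 28 genes tested was called by edgeR (0.0181 percent of all genes were). An unadjusted p under 0.05 was found for 4 of the 28, and for 1701 of all 16557 genes. Of the 4, Eomes had the smallest by edgeR (adjusted p = 0.317), and limma-voom called none while DESeq2 called 1, Eomes.

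The CD45 signal that remained was set beside these results in several ways. Ptprc differed by 1.03 ± 0.56 between the letters, with an adjusted p of 0.744 by edgeR. Per 100 Ptprc counts, Ncr1 had 3.68 to 17.3 counts (median 10.1) in W tumors and 0 in every a tumor outside MCA-943, with at most 10.8 in an a tumor of MCA-943. Gzmc had 32.4 to 325 counts per 100 Ptprc counts (median 111) in W tumors and 0 to 16.7 (median 5.88) in a tumors, so that the groups did not overlap. For Klrb1c and Il2rb they did overlap on this scale, with 4.65 to 27.3 against 0 to 29.4 for Klrb1c and 27.2 to 185 against 5.60 to 147 for Il2rb. With the level of 15 pan-leukocyte genes as a covariate, 22 genes were called (0.211 percent of all genes) and the median difference was 2.84. Without the 3 W tumors that held the most Ptprc, 16 were called (0.115 percent) and the median was 3.21. Both describe the contrast that chose the genes.

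**Figure D4:**
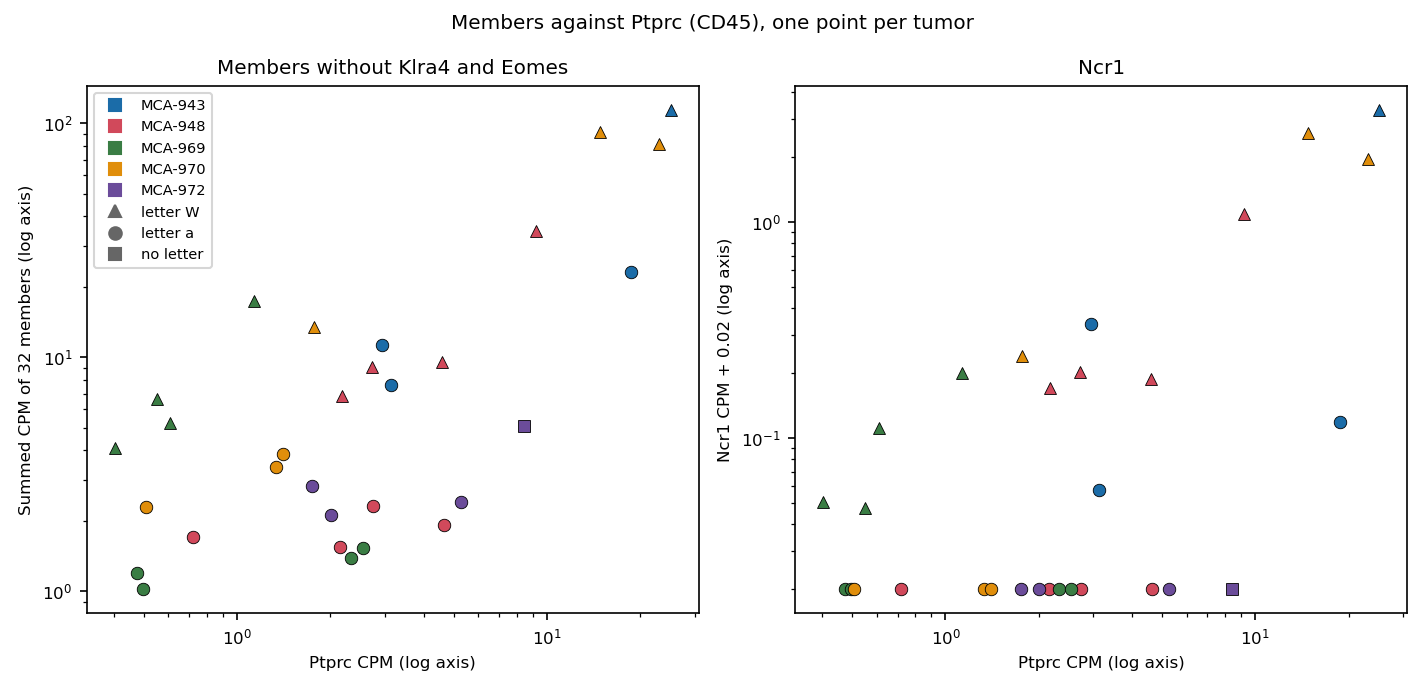
Summed CPM of 32 of the genes (without Klra4 and Eomes, left) and CPM of Ncr1 plus a small offset (right) against the CPM of Ptprc in each of the 30 tumors, on log axes, with colour for the line and shape for the letter. The sum ran from 4.11 to 114 CPM in W tumors and from 1.02 to 3.85 CPM in a tumors outside MCA-943, and reached 23.2 CPM in MCA-943 a-1D.

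Markers of other cells were set beside these values. In the letter contrast, 1 of 11 T cell genes tested was called higher in W tumors, Trbc1, the first constant segment of the T cell receptor β chain, at 3.54 ± 0.47 (edgeR adjusted p = 9.14e-05), and the median over the list was 0.72. No gene was called among 15 pan-leukocyte genes (median 0.62), 19 myeloid genes (median -0.0047), 3 B cell genes, 9 endothelial genes (median -0.88), 10 fibroblast genes (median -0.13) or 17 interferon-γ response genes (median 0.10). The summed level of the T cell list was 2.84 to 42.8 CPM in W tumors and 2.15 to 35.4 CPM in a tumors. This sum includes Trbc2, whose median was 0.566 CPM in W tumors and 4.67 CPM in a tumors. In a tumors Trbc2 reached 22.2 CPM, and the next highest gene of the list, Lck, reached 3.16 CPM. The paper lists Trbc2 among genes higher in non-sensitive tumors. The sum is therefore not read as T cell content. The summed level of the pan-leukocyte list was 21.9 to 216 CPM in W tumors and 25.8 to 167 CPM in a tumors. Of 18 other NK receptors and chemokines tested, 3 were higher in W tumors, namely Cd96, an adhesion receptor of NK and T cells, at 3.28 ± 0.49 (adjusted p = 0.000413), Txk, a kinase of T and NK cells, at 2.17 ± 0.33 (adjusted p = 0.000495), and Tigit, an inhibitory receptor named after its values were seen, at 1.27 ± 0.27 (adjusted p = 0.0287). Of 10 other transcription factors, 1 was higher, Ikzf3, at 3.38 ± 0.60 (adjusted p = 0.00397). None of 11 other granzyme and granule release genes was called, nor any of 6 genes listed for type 1 innate lymphoid cells. None of 3 listed for NK cells by CD49b was called either. Several genes of these lists lay far above Ncr1, which reached at most 3.29 CPM. In W tumors the median was 674 CPM for Lamp1, 140 CPM for Zeb2 and 99.8 CPM for Tmem176b. Others were near 0, such as S1pr5 with at most 2 counts. A change in the few remaining lymphocytes could be missed in such genes, so nothing is concluded from these lists. The part that T cells had in the shared cytotoxic genes was not tested.

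The a tumors of MCA-943 were compared with those of the other lines in a fit without W tumors. The filter on low counts had been set on all 30 tumors, so that some genes were tested because of their levels in W tumors. Among them were Klra8 and Klra9, with at most 2 and 1 counts in any a tumor. With the 17 a tumors alone, 21 of 28 genes were higher in MCA-943 than in MCA-948 (16.1 percent of all 16862 genes were), 25 than in MCA-969 (12 percent), 20 than in MCA-970 (12.5 percent) and 20 than in MCA-972 (11.6 percent). The median log2 difference was 3.01, 3.59, 3.16 and 3.04, and it was 2.16, 2.67, 2.31 and 2.59 when genes at 0 in every tumor of the other line were set to the bound that 3 counts per library allow, against medians between -0.02 and 0.03 over all genes. Genes that passed the filter through the tumors in which they were high had to differ, so these counts describe the genes and do not test them as a set. Gzme went the other way and was lower in MCA-943 than in MCA-970, with a difference of -1.92 ± 0.74 (edgeR adjusted p = 0.0361). In MCA-943 it was also lower than in MCA-972, at -1.93 ± 0.74 (adjusted p = 0.0363). Gzme had 5, 2 and 0 counts in the a tumors of MCA-943, 2, 9 and 17 in MCA-970 and 9, 10 and 10 in MCA-972. The first 2 of these lines overlapped, and its reads may have been shared with other granzymes. These p-values thus rest on few counts. The 4 comparisons share the MCA-943 tumors.

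Gzma had 43, 17 and 39 counts in the MCA-943 a tumors and at most 1 in each a tumor of the other lines, a difference of 6.53 ± 0.65 from MCA-948 (edgeR adjusted p = 2.56e-07). Gzmb had 203, 21 and 61 counts there, against 0 to 16 in other a tumors, and differed from MCA-948 by 4.57 ± 0.68 (adjusted p = 2.31e-05) and from MCA-972 by 3.48 ± 0.69 (adjusted p = 0.00049). Klrk1 differed from MCA-948 by 4.42 ± 0.84 (adjusted p = 0.000257) and Il2rb by 3.11 ± 0.46 (adjusted p = 2.05e-05), the latter with 166, 41 and 86 counts in MCA-943. In the a tumors of the other lines Gzma had at most 1 count, Klrk1 at most 4 and Gzmb 0 to 16. Gzma, Klrk1 and Gzmb thus passed the filter through other tumors, those of MCA-943 among them. Their p-values therefore describe the difference and do not test it. Ncr1 had 4, 1 and 13 counts in these tumors against 0 in every a tumor of the other lines, and only a-1D and a-R exceeded 3 counts. Markers of several other cells moved beside these genes. Cd8a was higher by 4.17, 4.36, 5.25 and 3.08 than in MCA-948, MCA-969, MCA-970 and MCA-972, and T cell genes were called higher in 8, 8, 7 and 7 of 12. Pan-leukocyte genes were called higher in 6, 11, 11 and 6 of 15, and interferon-γ response genes in 15, 13, 14 and 11 of 17. Of 19 myeloid genes, 1, 1, 1 and 0 were called higher and 2, 2, 1 and 3 lower. Fibroblast genes were called higher in 9, 6, 3 and 1 of 10, and endothelial genes lower in 5, 1, 7 and 0 of 9. Ptprc differed by 1.67 (adjusted p = 0.0569), 2.51 (adjusted p = 0.009), 2.93 (adjusted p = 0.00804) and 1.45 (adjusted p = 0.133). The shares of T cells and NK cells in this difference cannot be told apart in bulk RNA, and the part of the other cells was not tested. Without MCA-943 a-1D, the tumor with the most Ptprc among them, 17, 22, 14 and 17 genes were called. MCA-943 also carries a strain label of its own, so line and label cannot be told apart.

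In comparisons among all 30 tumors, 27 of 28 genes were called in at least 1 of 10 pairs of lines (59.0 percent of all genes were) and 24 of 28 by a test for any difference among the lines (94.1 percent). Because MCA-972 had no W tumor and MCA-943 only 1, line and letter are partly confounded in them. Klrg1 was called in 6 of 10 pairs, among them MCA-970 minus MCA-972 at 2.36 ± 0.44 (edgeR adjusted p = 6.47e-05). With the library number block as a covariate Klrg1 was called in 2 pairs, without this one (1.04 ± 0.65, adjusted p = 0.235), and without the 3 W tumors with the most Ptprc in 4.

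The tumor of MCA-972 without a letter entered no comparison between letters. It had 53 counts of Gzmb, 13 of Gzma and 29 of Il2rb, beside 323 of Ptprc, while the 3 a tumors of that line had 6, 16 and 3 counts of Gzmb and 64, 216 and 72 of Ptprc. In it, 17 of the 34 genes exceeded 3 counts, against 7 to 10 in the a tumors of the line. Across the 4 lines with both letters, 14 to 33 genes exceeded 3 counts in W tumors and 5 to 30 in a tumors, and outside MCA-943 no a tumor had more than 13.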

How the data were processed

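RNA of 30 bead-depleted tumors was sequenced in bulk, 1 library a tumor. The deposited table holds counts of reads per gene, which the authors made with STAR 2.5.3a on GRCm38, Picard and featureCounts (1.5.2 per the labels), and by its column names, copies of a read were removed with the help of molecular identifiers. Strand setting was not given in the sources used here. Gene names came from GENCODE M21. The 34 genes and all comparison lists were chosen with earlier results of these data known. Counts were filtered (filterByExpr) and normalized (TMM) in R 4.3.3 with edgeR 4.0.16, and tested by its quasi-likelihood test with Benjamini-Hochberg adjustment over all genes. A call needed an adjusted p under 0.05 and an absolute log2 difference of at least 1. The letters were compared over 26 tumors with line as a covariate, within lines and as an interaction, and the lines over 30 tumors or the 17 with the letter a. DESeq2 1.42.0 and limma-voom (limma 3.58.1), another filter, other scaling, blocks, covariates and each tumor left out were alternatives. The steps were tested on simulated data. Full statistics were given for genes called between the letters and for the highest in each role, other genes as ranges, list genes as counts with up to 2 named in each direction, and Ptprc always. The labels do not say that tumors of a group came from separate animals, so p-values measure the spread between tumors. Libraries fell into 3 blocks by library number, which the labels do not explain. Block 1 held MCA-972 and 6 tumors of MCA-969, block 2 held MCA-970, 2 tumors of MCA-948 and 2 of MCA-969, and block 3 held MCA-943 and 6 tumors of MCA-948.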

Additional observations from a re-analysis of the deposited data

Results flagged for a closer look

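Groups of 4 tumors in which a gene reached at least 10 counts were examined, 54 in all. In 9 of them the distance of a tumor from its nearest neighbour, as a share of the range, exceeded Dixon's critical value for 4 samples. Chance passes this value in about 5 percent of groups of normally distributed values. The values here were low CPM without logs, and every flagged tumor was the highest of its group. The 5 percent need not hold for them, so the number of flags is not read as an excess. In MCA-948 W-1D was the highest W tumor for Ncr1 (0.966), Gzmc (0.949), Gzmb (0.925) and Klrk1 (0.849), at 1.07 CPM against 0.183 CPM in the next tumor for Ncr1. In MCA-969 W-1D was the highest W tumor for Klrb1c (0.912), Sh2d2a (0.874), Gzmf (0.859) and Gzmd (0.839), at 3.17 CPM against 0.634 CPM in the next for Gzmf. MCA-948 a-2G was the highest a tumor of its line for Gzmc (0.921), at 0.313 against 0.0982 CPM. Genes named for the same tumor are not independent of each other.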

How the results depend on the processing

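The count of 23 genes higher in W tumors was 25 with DESeq2, 23 with limma-voom or DESeq2 size factors, 27 of 34 without a filter, 3 of 5 with a mean of at least 1 CPM, 22 with the library number block as a covariate, 22 without the 2 MCA-969 tumors with the other sensitivity label, 21 without MCA-943 and 21 to 25 with each tumor left out. Within library number blocks 1, 2 and 3 it was 0, 0 and 1 (Klra8), in 6, 6 and 10 tumors. An unadjusted p under 0.05 was found there for 14, 25 and 27 of 28 genes, and for 1639, 1831 and 2154 of all 16557 genes. The reversed value was Klrd1 within block 1, at -0.33 (adjusted p = 0.96). Of the other values of the called genes under the alternatives, 814 kept their direction and their call and 85 kept their direction only.

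Within MCA-943, with its single W tumor, no count of calls is given. Within MCA-948 the count of 5 was 15 with DESeq2, 0 with limma-voom, 3 without a filter and 2 of 5 with a mean of at least 1 CPM. It was 0 with the library number block as a covariate and 9 without the 2 MCA-969 tumors with the other label. With a tumor left out it was 0 to 12 (0 without a-R or a-1G, 2 without W-1D, W-2G or a-2D, 8 without MCA-969 W-2D, 12 without MCA-970 W-2D). Within MCA-969 the count of 1 was 7 with DESeq2, 0 with limma-voom, without a filter or with the library number block, and 0 to 3 with a tumor left out (0 without any of its a tumors, MCA-948 a-R, a-1G, W-1G, W-2D or W-2G, or MCA-970 W-1D, W-R, a-2D or a-2G, 2 without W-2D, W-R or MCA-970 W-2D, and 3 without W-2G). Within MCA-970 the count of 17 was 5 with limma-voom and 1 of 5 with a mean of at least 1 CPM. With a tumor left out it was 0 to 24 (0 without a-1D or a-2G, 5 without a-2D, 6 without W-1D or W-R). The interaction count of 0 was 1 with DESeq2 and 0 to 0 with a tumor left out.

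Over all 30 tumors, the count of 27 genes in at least 1 pair of lines was 5 of the 5 genes left with a mean of at least 1 CPM. It was 16 with the library number block and 25 to 28 with a tumor left out. The count of 24 for any difference was 5 of 5, 12 and 22 to 28 in the same order, and 13 without the 3 W tumors with the most Ptprc. Among a tumors, alternatives chosen after seeing the data gave 17 to 21, 22 to 25, 14 to 20 and 17 to 22 genes higher in MCA-943 with a tumor left out, 14, 22, 16 and 15 with DESeq2, and 0, 2, 1 and 1 of the 2 genes left with a mean of at least 1 CPM. The library number block could not be fitted with the lines in a tumors, and within block 3 the count against MCA-948 was 19. The cause of these changes was not tested, apart from fewer genes or tumors where so stated.

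The codes in the titles (1D, 2G, R and the like), whose meaning the labels do not give, did not pair the tumors: over 8 pairs of tumors with the same code, the correlation of deviations ran from -0.188 to 0.310 and exceeded 0.1 in 3. With the code as a replicate block, 23 genes were called between the letters, 8 within MCA-948, 22 for any difference among lines, and 26 in at least 1 pair of lines. Depth limited Klra1, Klra3, Klrc2, Klri1, Fasl and Ifng, which stayed at or near 3 counts in most tumors.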
